A study of Mus musculus with 6 samples.

Results

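Incretin and glucagon family receptors were examined in 6 RNA-seq libraries of sorted mouse pancreatic islet cells. The group consists of the 7 class B G protein-coupled receptors for GLP-1 (Glp1r), GIP (Gipr), glucagon (Gcgr), PACAP (Adcyap1r1), VIP and PACAP (Vipr1, Vipr2) and secretin (Sctr). The genes were chosen by name, with earlier results of these data known, and all 7 had a row among the 46932 gene symbols used. All 7 receptors couple mainly to the stimulatory G protein, which activates adenylyl cyclase and raises cyclic AMP. In beta cells cyclic AMP acts through protein kinase A and Epac2 to enlarge glucose-stimulated insulin release, which is how the gut hormones GLP-1 and GIP act as incretins. Glucagon from neighbouring alpha cells can act on beta cells by the same route, and PACAP and VIP reach the islet mainly from nerves.

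The adult mice carried 3 alleles: mIns1-H2b-mCherry, a nuclear red reporter driven by an Ins1 promoter, Sst-cre, and a floxed YFP allele that Cre switches on. Cre under the somatostatin promoter leaves a lasting YFP mark in delta cells and their descendants. The 3 sorted populations were transdifferentiated cells, double-positive for both colours, beta cells, positive for mCherry, and delta cells, positive for YFP. Each population has 2 libraries, replicate 1 from a male pool and replicate 2 from a female pool of 10 to 12 animals. They were taken after overnight culture of the islets in 5.5 mM glucose. For every library 10% serum and 0.25% trypsin are also listed. The design sets insulin-reporter cells that carry the delta lineage mark beside unmarked beta cells and beside the delta cells sorted from those islets. The sort itself used an Ins1-driven reporter and an Sst-driven mark, neither of which is a receptor gene.

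The deposited values are RPKM, read numbers corrected for gene length and library size, so levels can be compared between genes. The denominators implied by the low values were 12.5 and 10.9 M reads in the transdifferentiated, 21.6 and 20.5 M in the beta and 17.0 and 15.7 M in the delta libraries. Labels and markers went together: Ins2 (insulin) was at 68230 and 73020 RPKM in transdifferentiated, 243303 and 169339 RPKM in beta and 1125 and 1369 RPKM in delta libraries, and Sst (somatostatin) at 12842 and 12933, 71.1 and 86.8, and 49770 and 58480.5 RPKM in the same order. Markers of alpha and PP cells were also highest in the delta libraries. The summed level of 6 alpha-cell markers was 1800 and 2594 RPKM in transdifferentiated, 461 and 644 RPKM in beta and 15150 and 16520.5 RPKM in delta libraries, with none of the 6 at 0 in any group. The summed level of the 2 PP-cell markers was 11877 and 12041, 802 and 558, and 36498 and 37076 RPKM. Acinar markers were higher in the male than in the female library of each population, and highest in the male beta library. Their sum was 1842 and 64.3 RPKM in transdifferentiated, 6915 and 266 RPKM in beta and 501 and 279 RPKM in delta libraries. The part of these other cells in the receptor levels was not tested. In bulk libraries, fewer cells of a type and less RNA per cell cannot be told apart.

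The receptors separated into 4 that were readily detected and 3 that were close to absent. Glp1r, the GLP-1 receptor (chromosome 17, 30901817 to 30940791, GRCm38, plus strand), was the highest receptor gene in all 6 libraries. It was at 102.1 and 136 RPKM in transdifferentiated, 101.6 and 207 RPKM in beta and 34.2 and 44.0 RPKM in delta libraries. The male transdifferentiated and male beta values nearly coincided, the female beta library was the highest, and both delta libraries lay below the other 4. Among the 13022 genes tested, Glp1r ranked 265 and 154 by RPKM in transdifferentiated, 312 and 102 in beta and 1354 and 971 in delta libraries. Gipr, the receptor for the other incretin, GIP (chromosome 7, 19156061 to 19166127, minus strand), was at 31.3 and 34.1 RPKM in transdifferentiated, 15.1 and 17.2 RPKM in beta and 12.4 and 7.93 RPKM in delta libraries. Its order was transdifferentiated above beta above delta, with no overlap between groups. Gcgr, the glucagon receptor (chromosome 11, 120530699 to 120538986, plus strand), was at 10.6 and 15.1 RPKM in transdifferentiated, 12.3 and 11.8 RPKM in beta and 4.41 and 4.06 RPKM in delta libraries. Transdifferentiated and beta libraries overlapped, and delta libraries lay below both. Vipr1, the VPAC1 receptor, which binds VIP and PACAP about equally well (chromosome 9, 121642716 to 121672954, plus strand), was at 7.21 and 9.41 RPKM in transdifferentiated, 16.3 and 22.0 RPKM in beta and 5.15 and 5.56 RPKM in delta libraries. Here the beta libraries stood highest and the transdifferentiated libraries were nearer to delta.

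**Figure D1:**
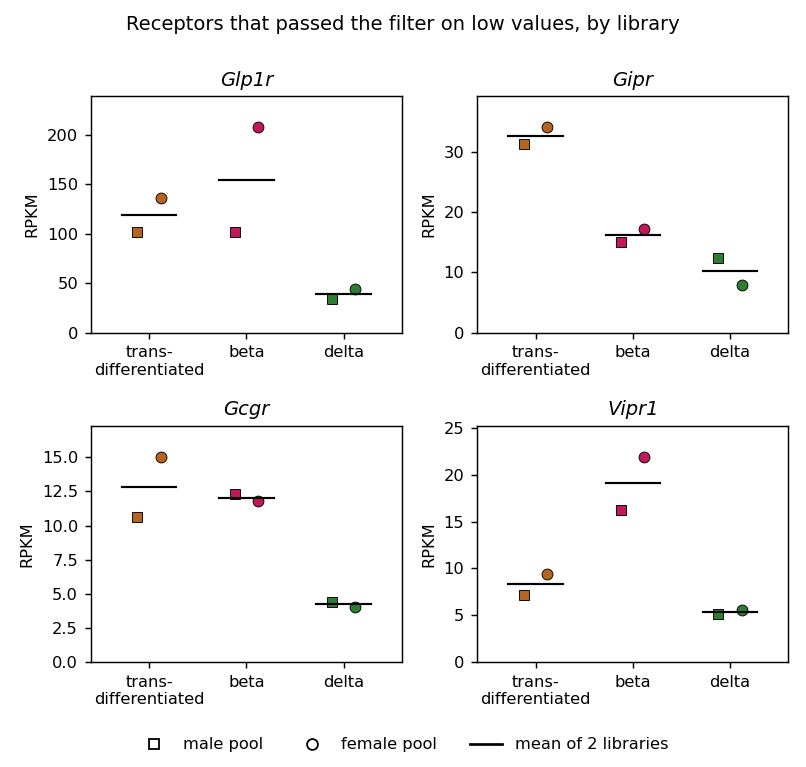
RPKM (vertical axes, from 0) of the 4 receptor genes that passed the filter on low values in transdifferentiated, beta and delta cells, with 1 point per library (square, male pool, circle, female pool) and a line at the mean of the 2 libraries. Gipr is highest in transdifferentiated cells (31.3 and 34.1 RPKM), Vipr1 is highest in beta cells (16.3 and 22.0 RPKM), and Glp1r and Gcgr are lowest in delta cells.

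The other 3 receptors never reached 1 RPKM. Vipr2, the VPAC2 receptor, was at 0.769 and 0.658 RPKM in transdifferentiated, 0.758 and 0.909 RPKM in beta and 0.409 and 0.600 RPKM in delta libraries. These values stood for 43 and 32, 73 and 83, and 31 and 42 reads. Adcyap1r1, the PACAP-selective PAC1 receptor, was at 0.0725 and 0.0556 RPKM in transdifferentiated, 0.00702 and 0.0296 RPKM in beta and 0.0714 and 0.0966 RPKM in delta libraries, or 6 and 4, 1 and 4, and 8 and 10 reads. Sctr, the secretin receptor and a gene of duct cells, was listed at 0 in both transdifferentiated libraries, where 3 reads would be worth 0.119 and 0.137 RPKM. It had 1 read in the male beta library and 1 read in the female delta library, and 0 in the other two. All 3 genes failed the filter of 1 RPKM in at least 2 of the 6 libraries and were left out of the test. With no filter, the adjusted p of limma for Vipr2 was 0.48 between transdifferentiated and delta, 0.59 between transdifferentiated and beta and 0.13 between beta and delta cells. For Adcyap1r1 these values were 0.70, 0.23 and 0.10, and for Sctr 0.73, 0.74 and 0.93. On log2(RPKM + 1) values as low as those of Adcyap1r1 and Sctr can hardly differ whatever the depth, so these p-values say little about both genes.

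**Figure D2:**
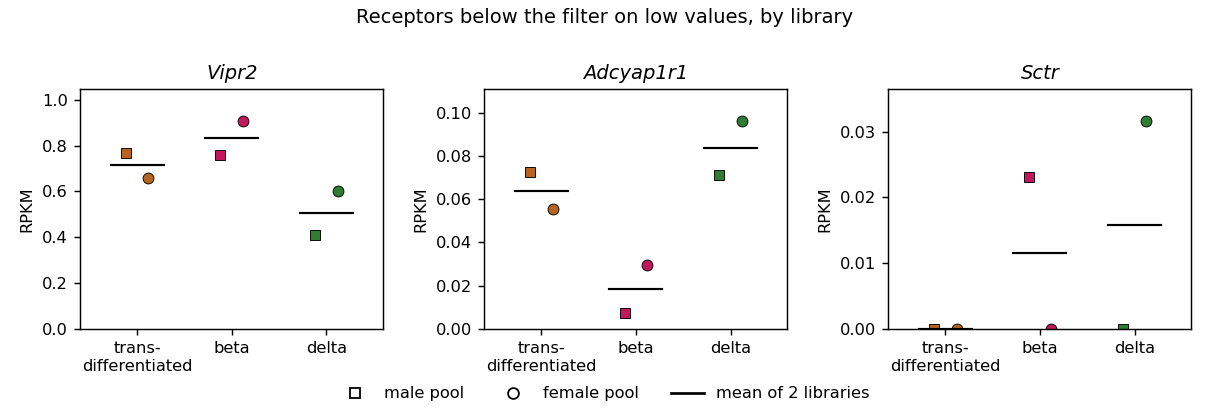
RPKM (vertical axes, from 0, with a different range in each panel) of the 3 receptor genes below the filter, by population, with 1 point per library and a line at the mean of 2 libraries. Vipr2 lies between 0.409 and 0.909 RPKM, Adcyap1r1 stays under 0.1 RPKM, and Sctr has 1 read in each of 2 libraries and 0 in the other 4.

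Promoter sequence is shown for Glp1r, Gcgr and Vipr1, the tested receptors with an entry in the promoter table, because their levels differed between beta and delta cells. Each line gives 250 bases before the start annotated by RefSeq on GRCm38.p6, all on the plus strand, with matches to the GC box GGGCGG (either strand, a motif bound by Sp-family factors) in capitals. For Glp1r and Gcgr the GENCODE start used for the gene coordinates above lies upstream of the RefSeq start.
Glp1r, chr17:30901617-30901866: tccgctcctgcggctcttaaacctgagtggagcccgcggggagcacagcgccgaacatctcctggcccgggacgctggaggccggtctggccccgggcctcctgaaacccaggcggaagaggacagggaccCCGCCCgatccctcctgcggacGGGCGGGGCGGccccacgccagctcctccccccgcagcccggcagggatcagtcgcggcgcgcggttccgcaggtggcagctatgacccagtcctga
Gcgr, chr11:120530477-120530726: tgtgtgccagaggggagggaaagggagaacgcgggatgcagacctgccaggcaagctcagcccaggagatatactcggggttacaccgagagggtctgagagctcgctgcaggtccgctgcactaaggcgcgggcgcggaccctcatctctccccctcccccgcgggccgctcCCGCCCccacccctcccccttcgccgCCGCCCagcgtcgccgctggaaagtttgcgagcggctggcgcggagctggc
Vipr1, chr9:121642466-121642715: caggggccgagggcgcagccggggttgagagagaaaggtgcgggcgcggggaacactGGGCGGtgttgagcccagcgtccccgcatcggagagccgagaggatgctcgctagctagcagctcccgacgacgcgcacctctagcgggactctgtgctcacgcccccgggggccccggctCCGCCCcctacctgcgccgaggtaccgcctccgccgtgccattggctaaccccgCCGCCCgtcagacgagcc

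The 3 promoters were rich in G and C, at 73.2%, 70.4% and 72.8% of bases, against a median of 52.4% over 32817 promoter windows of the same length. The GC box matched at 3 places in Glp1r, of which 2 overlap, at 2 in Gcgr and at 3 in Vipr1, and 32.7% of all windows held at least 1 match. The full cyclic AMP response element TGACGTCA was in none of the 3 windows and in 1.55% of all windows. Its half-site TGACG was in 1 of the 3, Vipr1, on the opposite strand, and in 17.8% of all windows. The letters CCAAT, on either strand, were in Vipr1 only of the 3 and in 33.8% of all windows. The E-box letters CAGGTG, on either strand, were in Glp1r only of the 3 and in 17.2% of all windows. These matches describe the letters of the windows and were not tested for binding.

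Transdifferentiated cells had more Glp1r, Gipr and Gcgr RNA than the delta cells whose lineage mark they carry. Of the 7 receptors 4 were tested, of which these 3 were called higher and 0 were called lower. Of all 13022 tested genes 12.7% were called, 5.53% higher and 7.2% lower (5.94% and 6.43% after median-of-ratios scaling). The 4 tested receptors were higher with no overlap between libraries, as were 27.6% of tested genes, while 35.8% were lower with no overlap. Glp1r averaged 119 ± 23.7 RPKM in transdifferentiated and 39.1 ± 6.90 RPKM in delta cells (SD, n = 2 each). On log2(RPKM + 1), limma gave a log2 fold change of 1.58, with a standard error (SE) of 0.33 and an adjusted p of 0.026. That call did not hold when any 1 of the 4 libraries compared was left out, with fold changes of 1.37 to 1.78 and adjusted p of 0.086 without transdifferentiated replicate 1, 0.16 without replicate 2, 0.13 without delta replicate 1 and 0.087 without delta replicate 2. Within pools its difference was nearly equal, 1.55 in male and 1.60 in female libraries, and with the pool as a block the adjusted p was 0.0024.

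Gipr averaged 32.7 ± 2.03 RPKM in transdifferentiated and 10.2 ± 3.19 RPKM in delta cells. This was a difference of 1.62 on the log2 scale (adjusted p = 0.0040, SE 0.20 by limma). Gcgr averaged 12.8 ± 3.15 RPKM in transdifferentiated and 4.24 ± 0.243 RPKM in delta cells, higher by 1.38 on the log2 scale (adjusted p = 0.0037, SE 0.17 by limma). Both calls held under each of the 12 alternatives computed, with a highest adjusted p of 0.041 for Gipr and 0.038 for Gcgr. In both genes the difference was larger between the female libraries (1.98 and 1.66) than between the male libraries (1.26 and 1.10). Vipr1 averaged 8.31 ± 1.56 RPKM in transdifferentiated and 5.35 ± 0.291 RPKM in delta cells, with no overlap. Its log2 fold change of 0.54 (SE 0.18, 95% confidence interval 0.11 to 0.97) had an adjusted p of 0.11, and of 0.034 with the pool as a block. Alpha-cell and PP-cell marker sums were lower in transdifferentiated than in delta libraries (values above), and their part in these differences was not tested.

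Against beta cells, transdifferentiated cells had 1.96 times the Gipr RNA and 0.465 times the Vipr1 RNA on the log2(RPKM + 1) scale, while differences in Glp1r and Gcgr did not pass the test. Of the 7 receptors 4 were tested, of which 1 was called higher and 1 lower. Among all tested genes 51% were called, 42.5% higher and 8.46% lower. The same 2 receptors had no overlap between libraries, as had 58.5% of tested genes in the higher and 17.5% in the lower direction. The whole distribution was shifted, with a median log2 difference of 0.32 across tested genes. Median-of-ratios scaling brought that median to -0.0017, with 27.8% of genes called higher and 26.1% lower. Gipr averaged 32.7 ± 2.03 RPKM in transdifferentiated and 16.2 ± 1.48 RPKM in beta cells, higher by 0.97 on the log2 scale (adjusted p = 0.0071, SE 0.20 by limma). After scaling the Gipr fold change was 0.59 (SE 0.18, adjusted p = 0.035). It was 1.001 between the male and 0.95 between the female libraries, and all 12 alternatives kept the call. Vipr1 averaged 8.31 ± 1.56 RPKM in transdifferentiated and 19.1 ± 4.04 RPKM in beta cells, a difference of -1.11 on the log2 scale (adjusted p = 0.0030, SE 0.18 by limma). It was -1.48 after scaling, and -1.07 and -1.14 within the male and female pools. Immune markers were also lower than in beta cells, with 4 of 5 tested members called lower and 0 higher. The summed level of 6 immune markers was 44.2 and 45.7 RPKM in transdifferentiated, 80.0 and 96.2 RPKM in beta and 73.4 and 87.9 RPKM in delta libraries. Ptprc, the pan-leukocyte marker CD45, reached at most 0.158 RPKM, in the female beta library, and Lyz2 (lysozyme) was at 0 in both delta libraries. C1qb, a complement gene of macrophages, was at 0.220 and 0.843 RPKM in transdifferentiated, 9.76 and 12.3 RPKM in beta and 0.0542 and 0.0586 RPKM in delta libraries. C1qa, another complement gene, was instead highest in the delta libraries, at 59.3 and 76.9 RPKM, and made up most of the delta sum. It was at 29.4 and 32.6 RPKM in transdifferentiated and 34.9 and 40.5 RPKM in beta libraries. The part of immune cells in the receptor differences was not tested.

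Glp1r averaged 119 ± 23.7 RPKM in transdifferentiated and 155 ± 74.8 RPKM in beta cells. The log2 difference of -0.30 had a 95% confidence interval of -1.09 to 0.49 and an adjusted p of 0.47 by limma. After median-of-ratios scaling it was -0.70 (adjusted p = 0.097). Its size turned on which beta library was used: the difference was 0.21 (adjusted p = 0.46) without beta replicate 2, and -0.81 (adjusted p = 0.038) without beta replicate 1. Gcgr averaged 12.8 ± 3.15 RPKM in transdifferentiated and 12.0 ± 0.372 RPKM in beta cells, a log2 difference of 0.07 with an interval of -0.33 to 0.46 (adjusted p = 0.76 by limma). The sign of the Gcgr difference turned after scaling (-0.31) and without transdifferentiated replicate 2 (-0.17). For both genes the intervals leave room for differences in either direction.

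**Figure D3:**
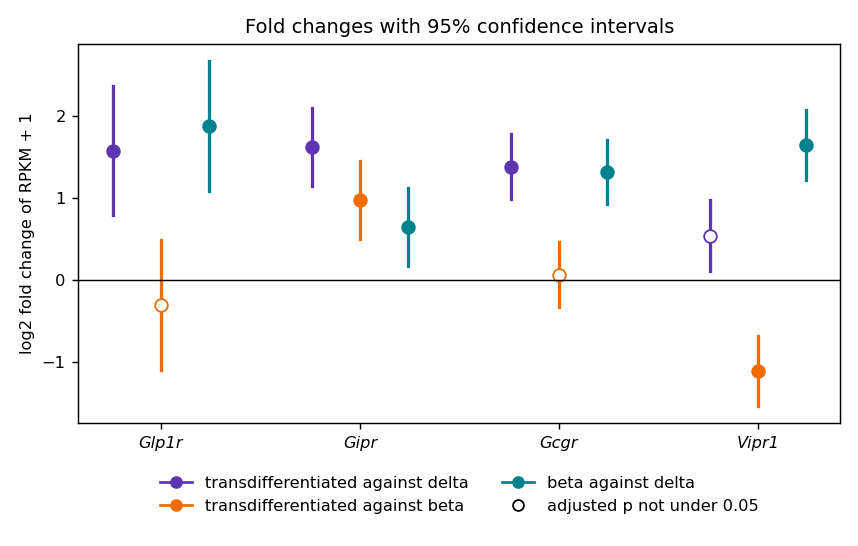
Log2 fold changes of RPKM + 1 (vertical axis) of the 4 tested receptor genes in 3 comparisons, with 95% confidence intervals from limma. Filled points passed an adjusted p of 0.05 and open points did not. Gipr lies above 0 in all 3 comparisons, and Vipr1 lies at -1.11 in transdifferentiated against beta cells.

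Beta cells were higher than delta cells in Glp1r, Gipr, Gcgr and Vipr1, with no overlap between libraries. Of all tested genes 57.9% were called, 11.7% higher and 46.3% lower in beta cells, and 27.8% and 29.7% after scaling. Without overlap, 20.1% of tested genes were higher and 60.9% lower. The log2 fold changes were 1.88 for Glp1r (SE 0.33, adjusted p = 0.0032), 1.65 for Vipr1 (SE 0.18, adjusted p = 4.50e-04) and 1.32 for Gcgr (SE 0.17, adjusted p = 8.0e-04), all by limma. These 3 calls held under all 12 alternatives. Of 5 tested immune markers 4 were higher and 1 lower in beta than in delta cells, and their part was not tested. Gipr was higher by 0.64 (SE 0.20, adjusted p = 0.028 by limma), with means of 16.2 ± 1.48 RPKM for beta cells and 10.2 ± 3.19 RPKM for delta cells. Its difference was 1.03 between the female but 0.26 between the male libraries. The Gipr call was lost without any 1 library except delta replicate 1: the adjusted p was 0.053 without transdifferentiated replicate 1 or 2, 0.058 and 0.11 without beta replicate 1 and 2, and 0.15 without delta replicate 2, where the fold change was 0.35. After scaling it was 1.05 (adjusted p = 0.0038).

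As a percentage of the distance from the delta mean to the beta mean of log2(RPKM + 1), the transdifferentiated mean stood at 32.9% for Vipr1, 84.0% for Glp1r, 105% for Gcgr and 251% for Gipr. After scaling these positions were 27.3%, 69.4%, 81.7% and 156%. With 1 library left out in turn, unscaled, the position of Vipr1 ran between 22.5% and 43.3% and that of Gipr between 204% (without delta replicate 1) and 378% (without delta replicate 2). Glp1r stood at 66.0% without beta replicate 1 and 115% without beta replicate 2, and Gcgr at 87.2% without transdifferentiated replicate 2. Gipr thus lay beyond the beta level and Vipr1 nearer to the delta level in each of these, while Glp1r and Gcgr changed sides of the beta level. The positions are a description, since both distances start from the same delta libraries and the beta and delta libraries set the line.

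Ratios between receptors within a library do not depend on how libraries are scaled. The RPKM ratio of Gipr to Vipr1 was 4.33 and 3.62 in transdifferentiated, 0.930 and 0.784 in beta and 2.42 and 1.43 in delta libraries. Transdifferentiated libraries were the highest of the 6 here. The ratio of Gcgr to Vipr1 was 1.47 and 1.60 in transdifferentiated, 0.757 and 0.536 in beta and 0.856 and 0.731 in delta libraries. The ratio of Glp1r to Vipr1 was 14.2 and 14.4 in transdifferentiated, 6.25 and 9.45 in beta and 6.65 and 7.91 in delta libraries. In these 3 ratios, which share Vipr1 as the denominator, both transdifferentiated libraries lay above the other 4. The ratio of Gipr to Gcgr was 2.95 and 2.27 in transdifferentiated, 1.23 and 1.46 in beta and 2.82 and 1.95 in delta libraries. That of Glp1r to Gcgr was 9.64 and 9.01, 8.26 and 17.6, and 7.77 and 10.8 in the same order. In both ratios over Gcgr, transdifferentiated and delta libraries overlapped. The ratio of the incretin receptors, Gipr to Glp1r, was 0.306 and 0.252 in transdifferentiated, 0.149 and 0.0830 in beta and 0.363 and 0.180 in delta libraries, so transdifferentiated libraries lay above beta and within the range of delta libraries. With 2 libraries a group no test of a ratio by permutation can reach 0.05, and none is given.

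**Figure D4:**
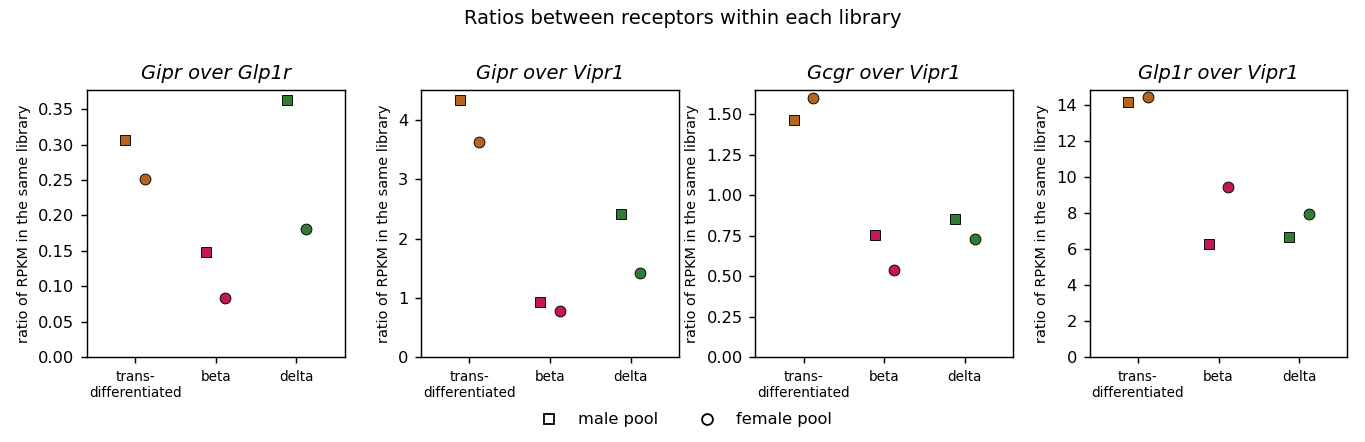
Ratios of RPKM between pairs of receptor genes in the same library (vertical axes, from 0), by population, with a square for the male and a circle for the female pool. The ratios over Vipr1 are highest in the transdifferentiated libraries, and Gipr over Glp1r is lowest in the beta libraries (0.149 and 0.0830).

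Glp1r made up most of the summed RPKM of the 7 receptors, with 67.2% and 69.6% in transdifferentiated, 69.6% and 80.0% in beta and 60.4% and 70.6% in delta libraries. Gipr held 20.6% and 17.5% in transdifferentiated, 10.3% and 6.64% in beta and 21.9% and 12.7% in delta libraries. Vipr1 held 4.75% and 4.83% in transdifferentiated, against 11.1% and 8.47% in beta and 9.08% and 8.93% in delta libraries. The summed level was 152 and 195 RPKM in transdifferentiated, 146 and 259 RPKM in beta and 56.7 and 62.3 RPKM in delta libraries, lowest in both delta libraries.

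The genes whose levels followed each receptor most closely over the 6 libraries were named by the highest Pearson r of log2(RPKM + 1), as a description. For Glp1r they were Adarb1 (an RNA-editing adenosine deaminase, r = 0.997), Tmem144 (0.997) and Tmem164 (0.996). For Gipr they were Ap1g2 (a clathrin adaptor subunit, r = 0.988), Mknk1 (a kinase of the translation factor eIF4E, 0.985) and Car15 (a carbonic anhydrase, 0.981). Mknk1, like Gipr, was highest in transdifferentiated cells, at 14.5 and 14.7 RPKM, against 9.28 and 9.81 RPKM in beta and 8.72 and 7.58 RPKM in delta libraries. For Gcgr they were Sgcz (a sarcoglycan, r = 0.989), Efhc2 (0.988) and Enox1 (0.988). For Vipr1 they were Prpf19 (a splicing factor, r = 0.998), Dap (0.998) and Gtf2h4 (a subunit of transcription factor TFIIH, 0.998). The 6 points come from 3 populations and share their library composition, and no p is given.

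Among the 6 ligand genes only Gcg was expressed at a testable level. Gcg encodes proglucagon, from which alpha cells cut glucagon and intestinal L cells cut GLP-1. It was at 1620 and 2368 RPKM in transdifferentiated, 236 and 422 RPKM in beta and 14573 and 15846 RPKM in delta libraries. Its log2 fold change was -2.96 in transdifferentiated against delta, 2.63 in transdifferentiated against beta and -5.59 in beta against delta cells, all called by limma. Gip, Adcyap1 (PACAP), Vip and Ghrh were at 0 in at least 5 of the 6 libraries, and their highest values were 0.0928 RPKM for Gip (female delta library), 0.0234 RPKM for Adcyap1 and 0.0640 RPKM for Vip (both in female beta cells) and 0.0694 RPKM for Ghrh (male beta library). Sct (secretin) was at 0.299 and 0.172 RPKM in transdifferentiated, 0.174 and 0.0916 RPKM in beta and 0.331 and 0.597 RPKM in delta libraries. Of 8 other class B receptor genes only Crhr2, the urocortin receptor CRF2, passed the filter. It averaged 1.05 ± 0.316 RPKM in transdifferentiated, 0.00932 ± 0.000349 RPKM in beta, with 3.16 ± 0.405 RPKM in delta cells. Outside delta cells it reached 1 RPKM only in transdifferentiated replicate 2 (1.27 RPKM), so it entered the test through the delta libraries. Crhr2 was lower in transdifferentiated than in delta cells by 1.02 on the log2 scale (adjusted p = 0.0095, and 0.060 without delta replicate 2).

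Genes for processing and breakdown of the ligands had 7 of 9 members tested. Pcsk1, the convertase that releases GLP-1 from proglucagon and also cleaves proinsulin, averaged 170 ± 24.7 RPKM in transdifferentiated and 21.8 ± 1.39 RPKM in delta cells, higher by 2.90 on the log2 scale (adjusted p = 0.0013, SE 0.25 by limma). In beta cells it was at 189 ± 70.4 RPKM, higher than in delta cells by 3.01. Dpp4, the protease that inactivates GLP-1 and GIP, averaged 29.4 ± 2.35 RPKM in transdifferentiated, 14.8 ± 3.27 RPKM in beta, with 28.4 ± 1.88 RPKM in delta cells. It was higher by 0.96 in transdifferentiated than in beta cells (adjusted p = 0.0035), and by 0.57 after scaling. It was the only one of the 7 members called there (14.3%), where 42.5% of all tested genes were higher. The median of the 7 was -0.08, against 0.32 for all genes. After scaling 1 member was higher and 3 were lower in that comparison (14.3% and 42.9%, against 27.8% and 26.1% of all genes), while the fit blocked by pool gave 1 and 1. Against delta cells 1 member was higher and 1 lower (14.3% each, against 5.53% and 7.2% of all genes), at a median of -0.27 against -0.03 for all genes. The lower one was Pam, which amidates peptide ends, at -0.56 (adjusted p = 0.033), and its adjusted p was 0.17 without transdifferentiated replicate 2 or delta replicate 1 and 0.19 without delta replicate 2. In beta against delta cells Pcsk1 and Cpe, a carboxypeptidase of prohormones, were higher and Dpp4 and Pam lower (28.6% each way, against 11.7% and 46.3% of all genes), at a median of -0.27 against -0.36 for all genes. After scaling Dpp4 was at -0.50 and Pam at -0.41 there, against -0.91 and -0.83 unscaled. The Cpe difference was 0.36 (adjusted p = 0.026), and 0.79 after scaling (adjusted p = 0.0044). Its call held without beta replicate 2 but was lost without any other library (adjusted p of 0.052 to 0.16), with only those groups in the fit (0.057) and with no filter (0.32).

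Receptor partners, kinases and arrestins, which modify ligand choice and switch receptors off, went both ways. Of 8 tested members 2 were higher and 2 lower in transdifferentiated than in delta cells (25% each, against 5.53% and 7.2% of all genes), at a median of -0.03, equal to that of all genes. Grk5, a receptor kinase, averaged 9.18 ± 1.29 RPKM in transdifferentiated and 1.87 ± 0.279 RPKM in delta cells, higher by 1.82 on the log2 scale (adjusted p = 0.0057, SE 0.25). The Grk5 call was lost without transdifferentiated replicate 2 (adjusted p = 0.054). The arrestin Arrb2 was higher by 0.92 (adjusted p = 0.0033). The other arrestin, Arrb1, and Ramp1, a partner of class B receptors, were lower by 0.70 and 0.84, and both calls were lost without any 1 of the 4 libraries (adjusted p of 0.053 to 0.12). Against beta cells 3 members were higher and 0 lower, Ramp1 by 0.84, Adrbk2 (also called Grk3) by 0.62 and Arrb1 by 0.60. That is 37.5% higher, below the 42.5% of all genes. After scaling 2 were higher and 4 lower (25% and 50%, against 27.8% and 26.1% of all genes), and Adrbk2 did not pass (0.23, adjusted p = 0.21). Adrbk2 also missed the threshold without transdifferentiated replicate 1 or 2 (adjusted p = 0.085 and 0.11). In beta against delta cells 3 members were higher and 2 lower, with or without scaling (37.5% and 25%, against 11.7% and 46.3% of all genes, or 27.8% and 29.7% scaled). Grk5 and Arrb2 were higher by 2.14 and 1.07, and Ramp1 and Arrb1 lower by 1.68 and 1.30. Arrb1 averaged 1.08 ± 0.136 RPKM in transdifferentiated, 0.376 ± 0.0381 RPKM in beta, with 2.38 ± 0.160 RPKM in delta cells, and Arrb2 9.88 ± 0.167, 11.1 ± 0.425 and 4.75 ± 0.283 RPKM. Outside delta cells Arrb1 reached 1 RPKM only in transdifferentiated replicate 1 (1.18 RPKM), so it entered the test through the delta libraries.

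G protein subunits and adenylyl cyclases, turn receptor binding into cyclic AMP. Of 14 tested members 9 were higher and 2 lower in transdifferentiated than in beta cells (64.3% and 14.3%, against 42.5% and 8.46% of all genes), at a median of 0.69 against 0.32 for all genes. After scaling 7 were higher and 2 lower (50% and 14.3%, against 27.8% and 26.1%). In beta against delta cells 1 was higher and 10 lower (71.4% lower, against 46.3% of all genes), at a median of -0.83 against -0.36. After scaling 3 were higher and 8 lower (57.1% lower, against 29.7%). Against delta cells, transdifferentiated cells had 1 higher and 3 lower (7.14% and 21.4%, against 5.53% and 7.2%), at a median of -0.31 against -0.03. Adcy8, a calcium-stimulated cyclase, averaged 2.88 ± 0.208 RPKM in transdifferentiated, 0.0578 ± 0.0557 RPKM in beta, with 7.35 ± 0.0546 RPKM in delta cells, with log2 fold changes of -1.11 against delta and 1.88 against beta cells (adjusted p = 0.0028 and 1.88e-04 by limma). Adcy2 followed the same order, at 1.59 ± 0.216, 0.0455 ± 0.0177 and 3.50 ± 0.329 RPKM. Its lower level than in delta cells (-0.80) was not called without transdifferentiated replicate 2 (adjusted p = 0.075) or with either delta library left out (0.071 and 0.052). Gnai1, an inhibitory subunit, was higher than in beta cells by 1.32, and Gnai3, another one, was higher than in delta cells by 0.70 but not called without transdifferentiated replicate 1 (adjusted p = 0.088) or with either delta library left out (0.077 and 0.14). Adcy6 was lower in beta than in delta cells by 1.48. Gnas, the stimulatory subunit, was listed at 14.1 ± 2.43 RPKM in transdifferentiated, 2.55 ± 0.101 RPKM in beta, with 34.7 ± 1.53 RPKM in delta cells. Exons of Gnas share 988 bases with Nespas and 1469 bases with Gm20721 on the opposite strand. The TruSeq RNA kit version 2 does not mark strand, so reads of these genes cannot be told apart there and the Gnas level is uncertain.

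Cyclic AMP phosphodiesterases break the messenger down. Of 14 tested members 10 were higher and 0 lower in transdifferentiated than in beta cells (71.4% higher, against 42.5% of all genes), at a median of 0.89 against 0.32 for all genes. After scaling 8 were higher and 0 lower (57.1% higher, against 27.8%). In beta against delta cells 1 was higher and 9 lower, with or without scaling (64.3% lower, against 46.3% of all genes and 29.7% scaled), at a median of -0.93 against -0.36. Pde2a averaged 3.06 ± 0.502 RPKM in transdifferentiated, 0.486 ± 0.229 RPKM in beta, with 7.86 ± 1.28 RPKM in delta cells. It was higher than in beta cells by 1.45, as were Pde4d by 1.10, Pde3a by 1.10 and Pde7a by 0.95. Beta cells were lower than delta cells in Pde2a (-2.58), Pde4d (-1.85), Pde7b (-1.28) and Pde3a (-1.24). Against delta cells, Pde2a and Pde4d were lower (-1.12 and -0.75) and Pde8a higher (0.69) in transdifferentiated cells (14.3% lower and 7.14% higher, against 7.2% and 5.53% of all genes), at a median of -0.12 against -0.03. The Pde4d and Pde8a calls were lost without any 1 of the 4 libraries compared (adjusted p of 0.073 to 0.22), and that of Pde2a without transdifferentiated replicate 1 (0.067) or delta replicate 2 (0.071).

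Among cyclic AMP effectors, 10 of 19 tested members were higher and 1 lower in transdifferentiated than in beta cells (52.6% and 5.26%, against 42.5% and 8.46% of all genes), at a median of 0.43 against 0.32. After scaling 5 were higher and 3 lower (26.3% and 15.8%, against 27.8% and 26.1%), so the higher share was near that of all genes. Rapgef3 (Epac1) averaged 2.48 ± 0.225 RPKM in transdifferentiated, 0.0752 ± 0.00281 RPKM in beta, with 5.09 ± 0.393 RPKM in delta cells. It was higher than in beta cells by 1.69, the kinase inhibitor Pkia by 1.43, the transcription factor Creb1 by 1.29 and its coactivator Crebbp by 1.03. Against delta cells Rapgef3 was the 1 member called, at -0.81 (adjusted p = 0.0095). The call was lost without transdifferentiated replicate 1 (adjusted p = 0.058) and without delta replicate 1 (0.063). After scaling 1 member was higher and 1 lower, while the fit blocked by pool gave 2 and 1. The share called lower was 5.26%, against 7.2% of all genes, and the median -0.14 against -0.03. Beta cells were lower than delta cells in 8 members and higher in 0 (42.1% lower, near the 46.3% of all genes), at a median of -0.31 against -0.36. After scaling 3 were higher and 5 lower (15.8% and 26.3%, against 27.8% and 29.7%). Rapgef3, Pkia, Crebbp and Rims2, a release-site protein bound by Epac2, were at -2.50, -1.75, -1.42 and -1.39 there.

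Cyclic AMP responsive genes, many of them immediate early genes that other stimuli also induce, had 6 of 11 tested members higher and 0 lower in transdifferentiated than in beta cells (54.5% higher, against 42.5% of all genes), at a median of 0.53 against 0.32. After scaling 4 were higher and 1 lower (36.4% and 9.09%, against 27.8% and 26.1%). Nr4a1 averaged 34.9 ± 8.78 RPKM in transdifferentiated, 7.09 ± 1.35 RPKM in beta, with 48.5 ± 27.6 RPKM in delta cells. It was higher than in beta cells by 2.14 (SE 0.38, adjusted p = 0.0043 by limma), Egr1 by 2.26, Fosb by 1.90 and Fos by 1.52. Without transdifferentiated replicate 1 the Egr1 call was lost (adjusted p = 0.057). The Fos call was lost after scaling (1.12, adjusted p = 0.057) and without transdifferentiated replicate 1 or 2 (adjusted p = 0.088 and 0.12). Against delta cells Nr4a2 was higher (0.90) and Junb lower (-1.02), at 9.09% each way against 5.53% and 7.2% of all genes, with a median of -0.30 against -0.03. The Nr4a2 call was lost without any 1 of the 4 libraries (adjusted p of 0.065 to 0.13), and the Junb call without transdifferentiated replicate 1 (0.14) or with either delta library left out (0.15 and 0.17). In beta against delta cells 1 member was higher and 7 were lower, and 2 and 7 after scaling (63.6% lower on both scales, against 46.3% of all genes and 29.7% scaled). The median was -1.26 against -0.36, with Egr1 at -3.15, Nr4a1 at -2.50, Fosb at -2.15 and Rgs2, a regulator of G protein signalling, at -2.14. Cells were dissociated with trypsin and sorted before RNA was taken, and the part of that handling in these genes was not tested.

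**Figure D5:**
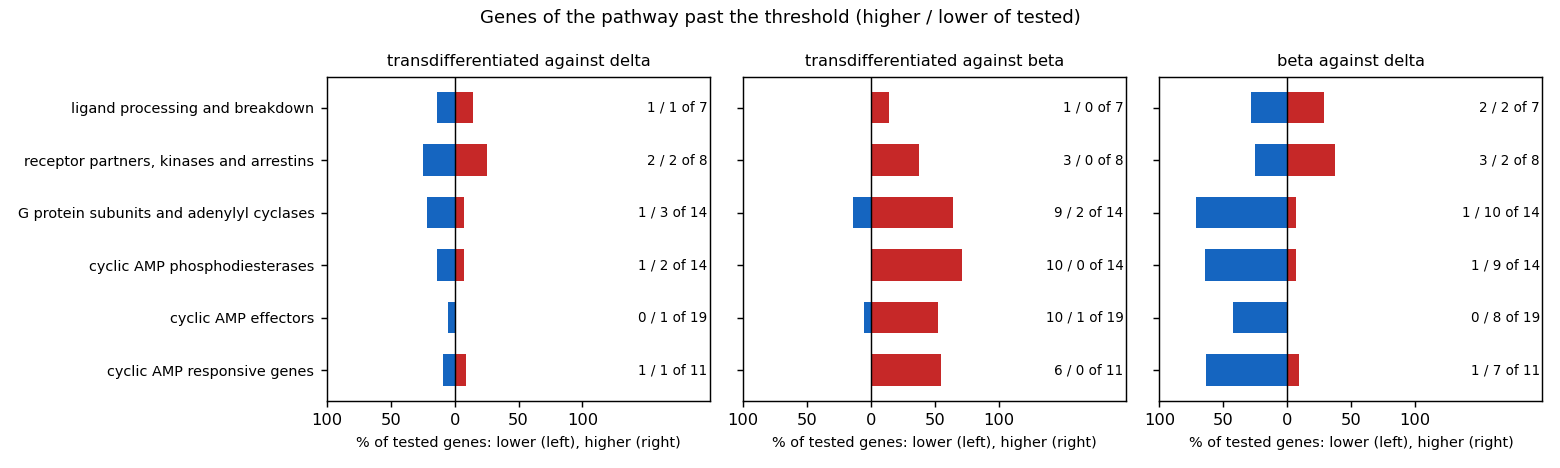
Share of the tested genes of 6 pathway lists that passed an adjusted p of 0.05 in 3 comparisons (horizontal axis, percent, lower to the left and higher to the right of 0), with the counts at the right of each row as higher / lower of tested. In transdifferentiated against beta cells, 9 of 14 G protein subunits and adenylyl cyclases were higher and 2 lower. Of 14 phosphodiesterases 10 were higher and 0 lower. These calls are on unscaled RPKM, where 42.5% of all tested genes were called higher.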

How the data were processed

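The authors deposited 1 table of RPKM values for 46959 gene symbols in 6 libraries. STAR 2.5, featureCounts, edgeR 3.14.0 and build GRCm38.p4 are listed per the submitters' processing notes, without their roles or settings, and per the labels' protocols libraries came from the TruSeq RNA kit version 2. The origin of the double-positive cells is given once as alpha cells in the series text, but as delta cells by its title and the Cre driver, and delta was used here. The 27 symbols turned into dates were left out. RPKM values are not counts, so the 13022 genes that reached 1 RPKM in 2 or more libraries were tested on log2(RPKM + 1) with limma 3.58.1 in R 4.3.3 (trend, 2-sided, 3 groups in 1 model, Benjamini-Hochberg adjustment over all tested genes, threshold 0.05). P-values measure the spread between 2 pooled libraries a group, shared over the groups, and fold changes on this scale understate those of low genes.

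Read numbers came from the steps of low values and exon lengths of GENCODE M21 (GRCm38), matched to 44027 symbols; between 83.3% and 86.5% of values under 50 reads were whole within 0.01 read. Such read numbers carry at least counting error, and their other sources of spread were not tested. The 3 sorts of a sex used 1 pool of islets, per the series text, so libraries can be paired by pool. The main fit left this pairing out. It entered only the differences within pools and the alternative with the pool as a block. Deviations from group means correlated at 0.47 (transdifferentiated and beta), 0.36 (transdifferentiated and delta) and 0.24 (beta and delta). Alternatives were a pseudocount of 0.1, no filter, median-of-ratios scaling, the pool as a block, no trend, only the groups compared, and each library left out. Sequences are RefSeq's, and 5 of the 7 receptors matched the promoter table. Receptors and lists were chosen with earlier results of these data known. Named genes are the receptors and ligands, up to 4 genes a list and comparison with the largest called change, and 3 genes per tested receptor with the most similar levels.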

Additional observations from a re-analysis of the deposited data

Results flagged for a closer look

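For 2 receptors the difference between transdifferentiated and beta cells had opposite signs in the male and female pools, each pool giving 1 library a population. The Glp1r log2 difference was 0.0071 in the male and -0.61 in the female pool, and the Gcgr log2 difference was -0.20 in the male and 0.33 in the female pool. After median-of-ratios scaling Glp1r was at -0.49 in the male and -0.92 in the female pool, the same sign, and Gcgr at -0.66 in the male and 0.038 in the female pool. The difference between the pools was not tested.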

How the results depend on the processing

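The 4 tested receptors kept their direction in all 3 comparisons under the 12 alternatives, except that in transdifferentiated against beta cells Glp1r was 0.21 without beta replicate 2, and Gcgr was -0.31 after median-of-ratios scaling and -0.17 without transdifferentiated replicate 2. Without beta replicate 1 Glp1r was -0.81 there, and without transdifferentiated replicate 1 Gcgr was 0.30. The cause was not tested. The fold change is fixed under no filter, the block, no trend and only the groups compared. It is also fixed when a library outside the comparison is left out. These settings can change a call but not a direction. Of 144 values, 127 kept both direction and side of the threshold, 12 lost the call and 2 gained it. Genes past the threshold numbered 1657, 6642 and 7546 in transdifferentiated against delta, transdifferentiated against beta and beta against delta cells. With 1 library left out the ranges were 522 to 2055, 4132 to 7086 and 5031 to 7823, where the lone library of a group is assumed to vary like the others. With the replicate block for the pool they were 1925, 7022 and 7890, and Vipr1 was called in transdifferentiated against delta cells. The block changed no other receptor call. With no filter on low values Glp1r (adjusted p = 0.10, transdifferentiated against delta) and Gipr (0.080, beta against delta) lost their calls, and Gipr also did with only the groups compared (0.053). Among the pathway genes named, the pseudocount of 0.1 ended the calls of Ramp1, Adcy2, Pde4d and Pde8a in transdifferentiated against delta cells, and the absence of a filter those of Pam, Ramp1, Arrb1, Pde4d, Pde8a, Junb and Nr4a2 there and of Adrbk2 and Fos against beta cells, and of Cpe in beta against delta cells. Few reads, at most 10 a library, and the pseudocount of 1 both limit what can be seen of Adcyap1r1 and Sctr.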
